A study of Homo sapiens with 14 samples.

Results

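KIF2C, PLK4, CCNE2 and TP73 are 4 human genes whose guides were depleted over 20 days without drug when the genes were activated, in at least 1 of 2 colorectal cancer lines. They were selected on those untreated day 20 over day 0 values, from 18886 genes in the activation screens and 19114 in the knockout screens, and were found by their symbols in the guide tables. The activation screens hold 12 guides against them among 56762 (3 a gene) and the knockout screens 16 among 77441 (4 a gene). Activation used dCas9-VP64, a cutting-dead Cas9 fused to an activation domain, which raises transcription of the gene whose promoter it is guided to, with the Calabrese library. Knockout used Cas9, which cuts the coding sequence, with the Brunello library. In each of RKO and SW620, both established human colorectal carcinoma lines, cells carrying 1 of the libraries were sequenced at day 20 under oxaliplatin, at day 20 untreated and at day 0. Oxaliplatin, a platinum drug that crosslinks DNA, was given at 1.9 µM to RKO and at 0.38 and 0.5 µM to SW620. All groups had been selected for the Cas9 or dCas9-VP64 construct with blasticidin and for the library with puromycin, so day 0 cells carry the same constructs. Each of the 14 conditions is 1 library, so no difference could be set against a spread between cultures and no p-value is given.

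The genes have separate known roles in cell division, its arrest or apoptosis. KIF2C encodes a kinesin-13 motor that takes microtubule ends apart and helps correct faulty attachments between chromosomes and the spindle. PLK4 is the kinase that starts the building of a new centriole, and both its loss and its excess are known to disturb centriole number. CCNE2 encodes cyclin E2, which with CDK2 drives entry into S phase, and TP73 encodes a transcription factor that can switch on genes of cell cycle arrest and apoptosis. In a pooled screen a guide's share of the reads falls when cells carrying it divide less or die, and the counts do not separate slower division from death.

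Activation guides are aimed at promoters, and those annotated for the genes are shown as RefSeq gives them in GRCh38.p14, each from 250 bases before to 50 after an annotated start, on the plus strand. In that annotation KIF2C spans chr1:44739837-44767767, PLK4 chr4:127880893-127899224 and TP73 chr1:3652516-3736201. Entries were found for 3 of the 4 genes: KIF2C has 1 start, on chromosome 1 at chr1:44739587-44739886, PLK4 has 3, the first on chromosome 4 at chr4:127880643-127880942, and TP73 has 3. The first TP73 window lies at chr1:3652266-3652565 and the next, an internal start, at chr1:3690422-3690721. TP73 is known to be transcribed from an upstream promoter, giving full-length proteins, and from an internal promoter, giving proteins that lack the activating domain, which is why both are printed. Capitals mark matches on either strand to 3 motifs of cell cycle promoters: the CCAAT box (CCAAT), the CHR element (TTTGAA or TTCGAA) and the E2F site (TTTCCCGC, TTTGGCGC, TTTCGCGC or TTTGCCGC).
KIF2C: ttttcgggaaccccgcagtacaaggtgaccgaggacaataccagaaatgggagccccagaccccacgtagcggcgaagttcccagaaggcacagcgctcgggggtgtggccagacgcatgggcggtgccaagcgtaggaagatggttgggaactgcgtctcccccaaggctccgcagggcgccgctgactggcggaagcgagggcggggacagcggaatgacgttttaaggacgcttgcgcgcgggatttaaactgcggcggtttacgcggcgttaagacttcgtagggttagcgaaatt
PLK4, first start: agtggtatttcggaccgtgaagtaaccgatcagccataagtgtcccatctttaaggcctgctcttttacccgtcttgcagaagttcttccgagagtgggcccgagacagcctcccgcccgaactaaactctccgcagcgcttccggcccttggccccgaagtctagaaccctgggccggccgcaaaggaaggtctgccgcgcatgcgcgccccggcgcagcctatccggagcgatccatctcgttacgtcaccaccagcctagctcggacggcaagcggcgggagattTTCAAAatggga
TP73, first start: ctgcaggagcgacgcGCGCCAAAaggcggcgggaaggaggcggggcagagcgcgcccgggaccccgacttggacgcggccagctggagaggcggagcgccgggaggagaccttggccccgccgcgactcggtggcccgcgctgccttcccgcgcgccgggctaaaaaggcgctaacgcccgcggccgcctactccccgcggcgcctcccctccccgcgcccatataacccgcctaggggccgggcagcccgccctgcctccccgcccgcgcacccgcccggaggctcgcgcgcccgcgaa
TP73, internal start: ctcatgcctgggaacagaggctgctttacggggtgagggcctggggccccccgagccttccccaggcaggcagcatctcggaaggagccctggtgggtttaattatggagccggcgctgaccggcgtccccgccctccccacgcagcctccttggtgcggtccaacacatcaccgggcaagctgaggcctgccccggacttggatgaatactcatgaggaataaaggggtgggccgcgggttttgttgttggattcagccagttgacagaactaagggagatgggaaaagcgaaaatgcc

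The first PLK4 window held a CHR match on the minus strand, 38 bases after the start, and the first TP73 window held an E2F match on the minus strand, 235 bases before the start. The KIF2C window and the internal TP73 window held no match, and in the windows that are not printed the last PLK4 and last TP73 starts each had a CCAAT match. Of 34796 promoter windows, 34.6% held a CCAAT match, 16.4% a CHR match and 3.3% an E2F match, and no matches in the printed windows overlapped. Where in these windows the Calabrese guides bind is not given in the files used here.

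Depth set how finely each gene could be followed. The libraries held 3647823 to 69526489 counts, with the lowest total in untreated SW620 activation (median 62 counts per guide). The lowest median, 21 counts per guide, was that of treated RKO activation, where the top 1% of guides held 52.8% of counts and non-targeting guides had a median of 200 counts. In the knockout screens non-targeting guides stood above the other guides from the start, with day 0 medians of 810 counts against 352 for all guides in RKO and 1600 against 774 in SW620. Counts were divided by a median-ratio size factor per library, and these scaled counts are compared below. A gene's value is the median over its guides of the log2 fold of scaled counts plus 5. A gene is called lower where that median is at or below -1 and every guide lies below 0. Intervals are exact 95% counting intervals of the log2 fold without the added 5, so a guide with few counts can have a value outside its interval, and they leave out PCR and culture error.

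In untreated RKO cells, activation of KIF2C, CCNE2 and PLK4 went with near loss of their guides by day 20, whereas TP73 guides stayed inside the range of non-targeting guides. These activation values chose the genes and are a description with no test. Over all 18777 genes tested in RKO activation, 0.543% were called lower and 0 higher, and single non-targeting guides lay between -0.61 and 0.66 (5th to 95th percentile of log2 folds). KIF2C, at a median of -3.68, had the lowest value of all genes. Its 3 guides had 10.0, 21.6 and 2.51 scaled counts at untreated day 20, against 187.9, 172.6 and 120.3 at day 0. All 3 lay below every tested non-targeting guide in log2 fold, with counting intervals of -4.95 to -3.59, -3.48 to -2.55 and -7.21 to -4.35.

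CCNE2 had the second lowest RKO activation value, a median of -3.28 with guides from -3.69 to -2.13. Its guides fell to 21.1, 60.2 and 37.1 scaled counts at untreated day 20, against 248.9, 281.5 and 540.7 at day 0. All 3 CCNE2 guides lay below every tested non-targeting guide in log2 fold. PLK4 ranked 5 of 18777, with a median of -2.89. Its guides had 20.6, 34.6 and 0 scaled counts at untreated day 20, against 81.0, 288.4 and 173.2 at day 0. The PLK4 guide at 0 was at least 115-fold lower, taking 3 counts in the untreated library as the floor.

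TP73 showed no such loss in RKO. Its activation guides had 369, 959 and 498 raw counts at untreated day 20 (size factor 1.99), against 607, 1389 and 1119 at day 0 (size factor 3.59). The median was 0.13, ranking 12359 of 18777, and the guides, from -0.31 to 0.31, lay inside the non-targeting range. For RKO the name of harmful when activated therefore covers 3 of the 4 genes.

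In untreated SW620 cells the order was different: TP73 had the lowest value of all 18777 genes in the activation screen, KIF2C ranked 14, CCNE2 91 and PLK4 16915. The background was 0.309% of genes called lower and 0 higher, and non-targeting guides lay between -0.50 and 0.55. TP73 guides had 0, 5.93 and 11.9 scaled counts at untreated day 20, against 121.0, 148.1 and 68.7 at day 0. In raw counts these were 0, 2 and 4, against 250, 306 and 142. The TP73 median was -3.81, and the guide at 0 was at least 13.6-fold lower, a smaller bound than for PLK4 in RKO. The untreated SW620 library had a median of 62 counts per guide, against 547 in the untreated RKO library.

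KIF2C in SW620 activation had a median of -1.84. Its guides had 8, 12 and 32 raw counts at untreated day 20 (size factor 0.337), against 285, 290 and 345 at day 0 (size factor 2.07). In log2 fold these were -2.31, -1.84 and -0.78, so 1 guide lay closer to 0 than the others. CCNE2, at -0.95, fell short of the fold used although all 3 of its guides lay below 0 (-2.36, -0.95 and -0.68). Its scaled counts were 92.0, 92.0 and 47.5 at untreated day 20, against 182.4, 150.0 and 264.2 at day 0. With the mean of guides CCNE2 stood at -1.33 and with non-targeting scaling at -1.01, both past the fold.

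PLK4 activation guides went in both directions in SW620, with 133.5, 290.8 and 139.5 scaled counts at untreated day 20, against 64.8, 235.7 and 194.5 at day 0. The median was 0.30, with guides from -0.47 to 0.99, of which the highest exceeded 99.8% of non-targeting guides. That guide started at 64.8 scaled counts, below the 5th percentile of non-targeting guides at day 0 (113.8). Of the 4 genes, KIF2C and TP73 were called lower in SW620 and KIF2C, CCNE2 and PLK4 in RKO. KIF2C alone was called in both lines.

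**Figure D1:**
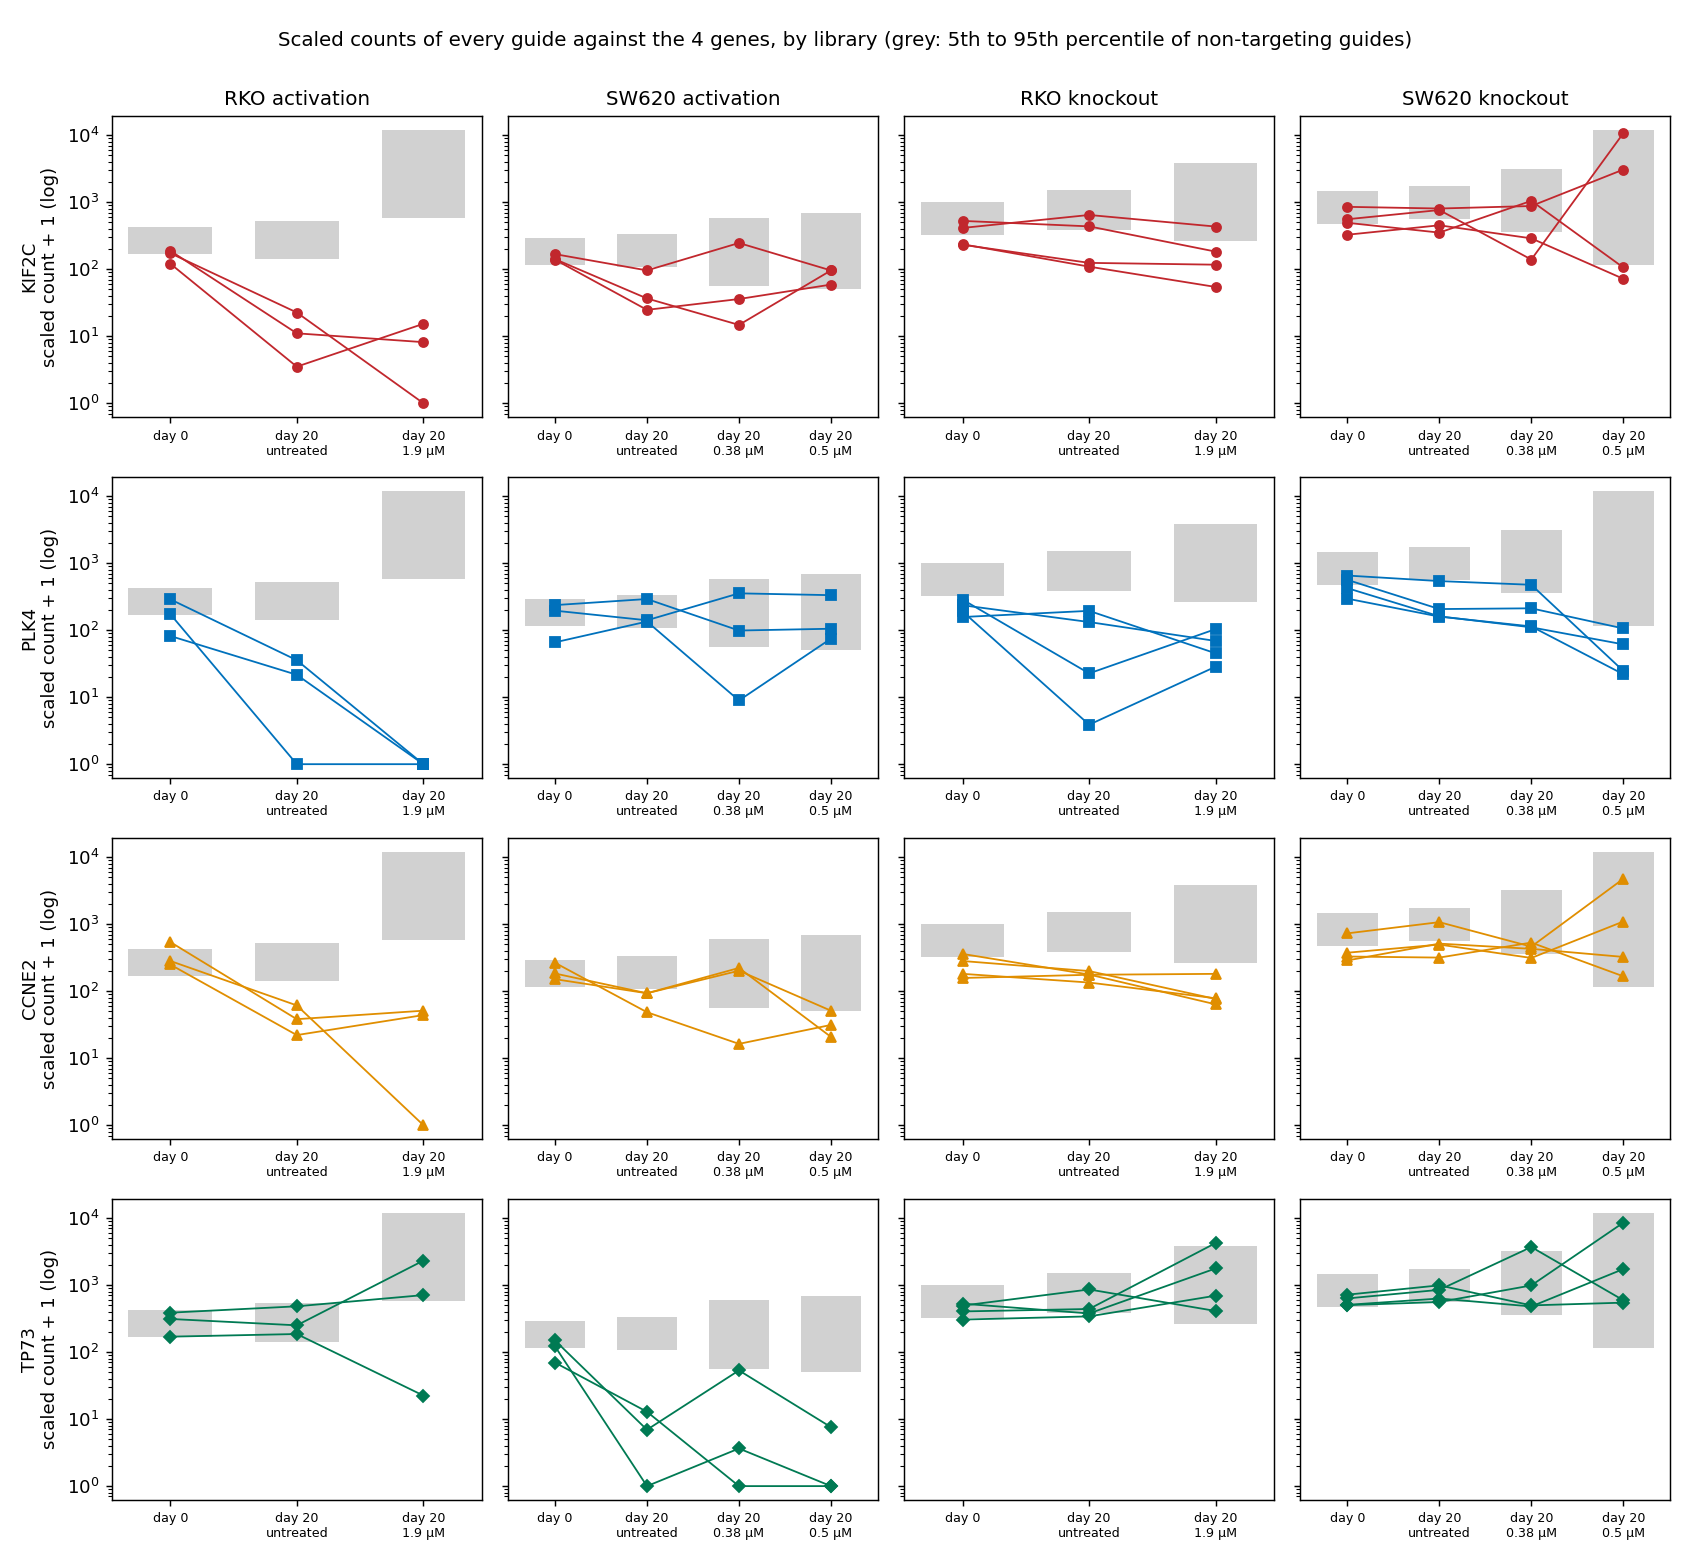
Scaled counts plus 1 (log axis) of every guide against KIF2C, PLK4, CCNE2 and TP73 (rows) in the libraries of the 4 screens (columns), drawn as a line per guide, over grey bars that run between the 5th and the 95th percentiles of the non-targeting controls. At untreated day 20 the KIF2C, PLK4 and CCNE2 guides lie below the grey bar in RKO activation. In SW620 activation the KIF2C, CCNE2 and TP73 guides lie below it. A KIF2C guide (120.3 scaled counts) and a PLK4 guide (81.0) in RKO activation were already below the bar at day 0. So were a TP73 guide (68.7) and a PLK4 guide (64.8) in SW620 activation.

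The difference between the lines was at the edge of all genes for PLK4 and TP73. RKO minus SW620 in untreated activation was -3.19 for PLK4, the lowest of 18776 genes tested in both, and 3.94 for TP73, the highest. It was -2.33 for CCNE2 (rank 5 from the lowest) and -1.84 for KIF2C (rank 9), where 5% of genes lay below -0.60 and 5% above 0.60. These differences come from the values that chose the genes and were not tested, and guides could not be paired because the activation tables of the lines number them differently. Between the 102 genes called lower in RKO activation and the 58 in SW620 activation, 13 were shared, KIF2C among them, which is 12.7% of the RKO genes and 22.4% of the SW620 genes. Of all genes tested in both, 0.543% were called lower in RKO and 0.309% in SW620.

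**Figure D2:**
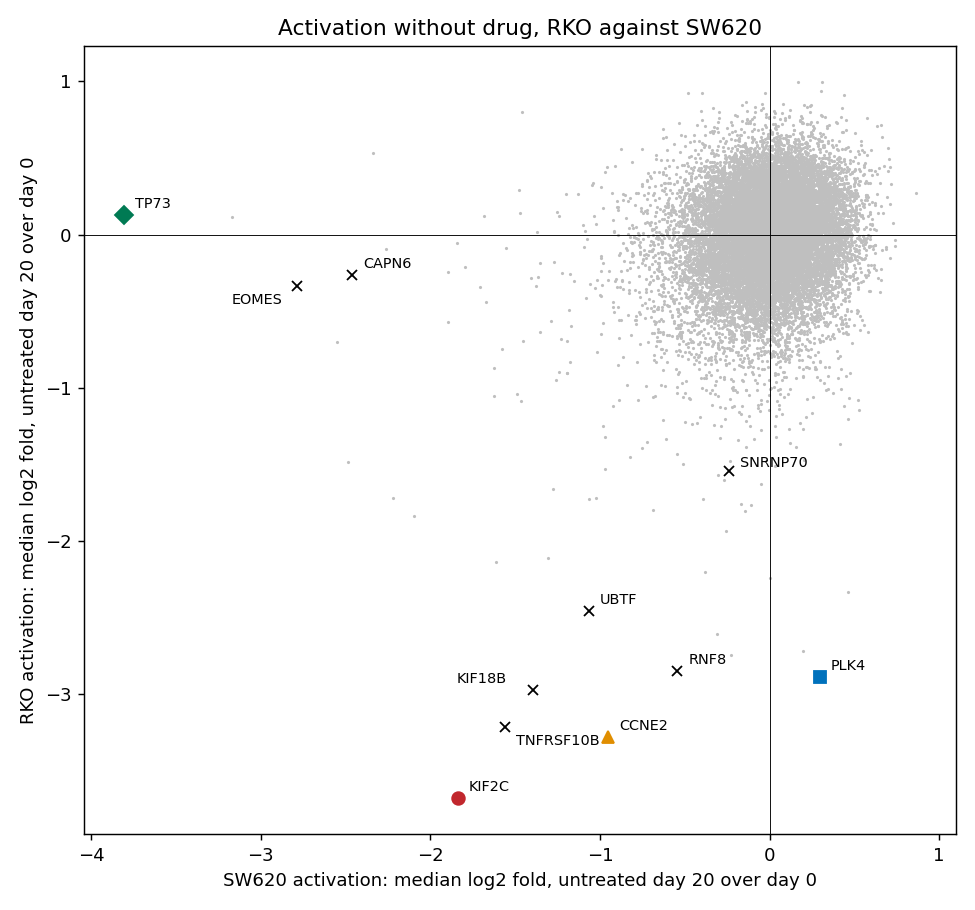
Median log2 fold of each gene's activation guides, untreated day 20 over day 0, in RKO (y axis) and SW620 (x axis), with grey dots for all genes tested in both, coloured symbols for the 4 genes and crosses for the genes named as near to them. TP73 lies far left at an RKO value of 0.13, PLK4 lies far down at an SW620 value of 0.30, and KIF2C and CCNE2 lie low in both lines.

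Knockout of the same genes, whose values did not choose them, was compared in the same way. Without drug 10.2% of 19077 genes were called lower in RKO knockout and 1.08% of 19100 in SW620 knockout. Of the 4 genes 0 were called in RKO and 1, PLK4, in SW620. Non-targeting guides lay between 0.0017 and 0.90 in RKO and between -0.07 and 0.58 in SW620, so most sat above the median gene (0.09 in RKO and 0.04 in SW620).

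PLK4 had the lowest knockout median of the 4 genes in both lines. In SW620 its guides had 539.4, 205.7, 160.0 and 158.3 scaled counts at untreated day 20, against 652.6, 563.0, 423.2 and 294.4 at day 0. All 4 lay below 0, with a median of -1.13 that ranked 167 of 19100. This call was lost with the mean of guides, at -0.99. In RKO the guides split: they had 21.6, 131.2, 193.3 and 2.88 scaled counts at untreated day 20, against 285.2, 234.6, 156.2 and 189.4 at day 0. The RKO median of -2.13 was past the fold, but 1 guide stood at 0.30, so the gene was not called, and with non-targeting scaling it was, at -2.62.

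KIF2C knockout guides lay on both sides of 0 in each line. The RKO median was -0.57, with guides at -0.27, -0.88, 0.64 and -1.08, ranking 2801 of 19077. Of these 4 guides 3 lay below the 5th percentile of non-targeting guides. That percentile was 0.0017, so any guide below 0 lay under it, among them guides of PLK4, CCNE2 and TP73. In SW620 the median was 0.19, with guides from -0.48 to 0.46, and with non-targeting scaling it was -0.08. The guide with the highest RKO value was also above 0 in SW620, at 0.45, whereas the guide at -1.08 in RKO stood at 0.46 there.

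CCNE2 knockout gave a median of -0.46 in RKO, with 3 of 4 guides below 0 and a range of -1.01 to 0.16. In SW620 it gave 0.48, ranking 18927 of 19100, and 3 of 4 guides lay above 0, up to 0.83. That median lay inside the non-targeting range of -0.07 to 0.58, and its lowest value over the 7 settings was 0.21. TP73 knockout stood at 0.14 in RKO (-0.48 to 0.80), or -0.36 with non-targeting scaling, and at 0.37 in SW620 (0.15 to 0.46), where all 4 guides lay inside the non-targeting range.

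Activation minus knockout was computed for each gene within a line, over 18344 genes in RKO and 18366 in SW620. The activation value in it chose the genes, so a place near the edge of all genes follows from the choice and is given as a description. In RKO it was -3.11 for KIF2C, the second lowest value, and -2.83 for CCNE2, ranking 5, against an all-gene median of -0.05. For PLK4, where both perturbations gave low values, it was -0.76, and for TP73 -0.01. In SW620 it was -4.18 for TP73, the lowest of all genes, -2.02 for KIF2C (rank 12) and -1.43 for CCNE2 (rank 39). PLK4 went the other way in SW620, at 1.42 (rank 18292 from the lowest), with 0.30 under activation and -1.13 under knockout. Of 101 genes called lower in RKO activation, 8 (7.92%) were among the 1833 called lower in RKO knockout (0.436% of those), where knockout called 9.99% of genes tested in both. Of 58 in SW620 activation, 1 (1.72%) was among the 195 in SW620 knockout (0.513%), where knockout called 1.06%. None of the 4 genes was among them.

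**Figure D3:**
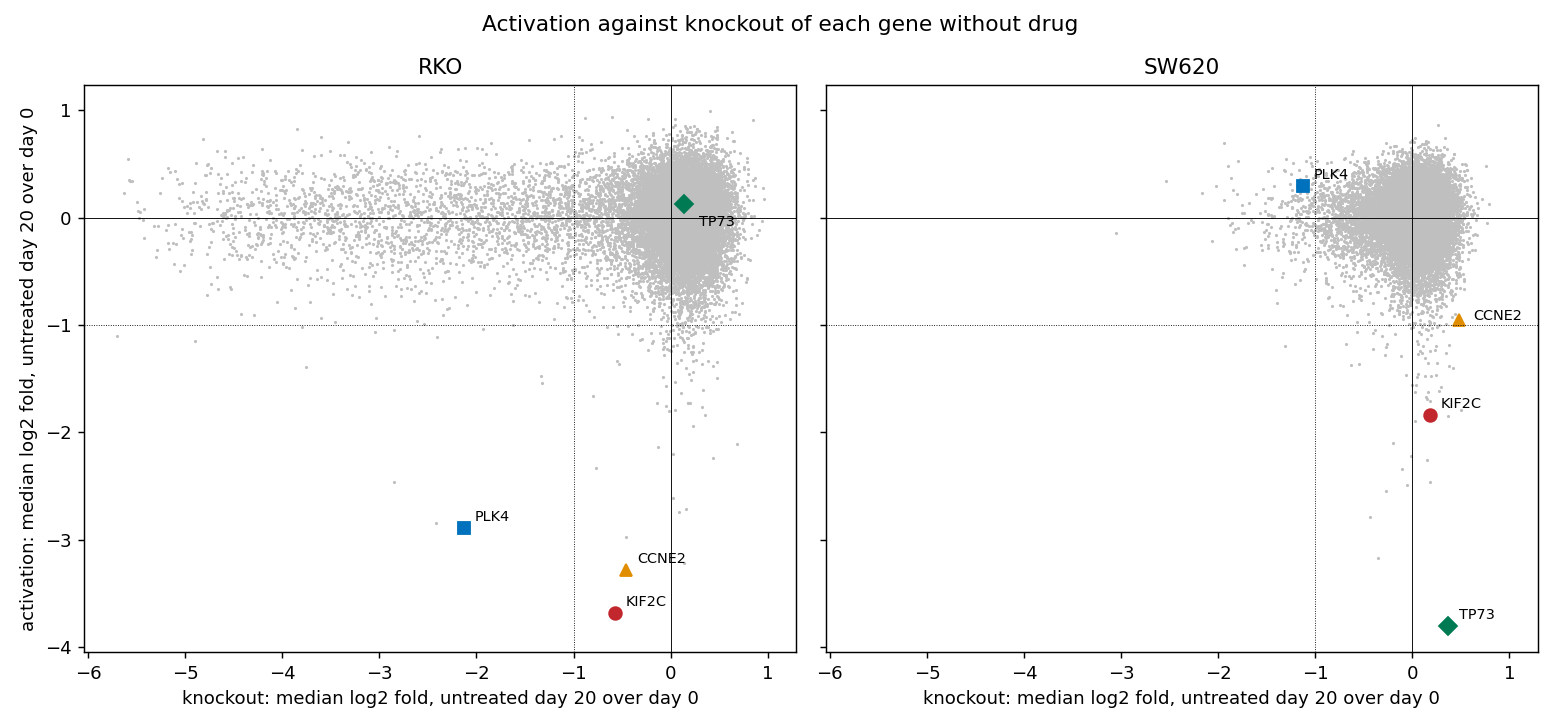
Median log2 fold of each gene without drug (untreated day 20 over day 0) under activation (y axis) and knockout (x axis) in RKO and SW620, with grey dots for all genes, coloured symbols for the 4 genes and dotted lines at -1. KIF2C and CCNE2 lie low on the activation axis and near 0 on the knockout axis in RKO, PLK4 lies low on both axes there, and TP73 lies lowest on the activation axis in SW620.

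Genes of the same pathways were counted without drug beside the share of all genes called lower, 0.543% in RKO activation, 0.309% in SW620 activation, 10.2% in RKO knockout and 1.08% in SW620 knockout. No gene at all was called higher in these comparisons. Each list includes KIF2C, PLK4, CCNE2 or TP73, which were chosen on the activation values. Their own activation calls follow from that choice and are not to be read against those shares. Of 16 tested genes on a list of kinesin-13 motors, Aurora B partners and checkpoint proteins, 1 was called lower under activation in each line, KIF2C itself. The list medians were 0.09 in RKO and 0.0012 in SW620, against all-gene medians of 0.02 and 0.0078. Knockout of the same list gave 8 of 16 genes called lower in RKO, with a list median of -1.40, and 0 of 17 in SW620, with a list median of -0.34. In RKO knockout BIRC5 and AURKB, subunits of the chromosomal passenger complex, stood at -2.97 and -2.19, KIF18A, a kinesin-8 that dampens chromosome movements, at -2.82, and the checkpoint protein MAD2L1 at -2.28. In SW620 knockout the lowest were BIRC5 at -0.87 and the spindle motor KIF11 at -0.81.

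On the list of centriole duplication genes, PLK4 was the 1 gene of 14 called lower in RKO activation, and in SW620 activation 0 of 14 were, where CEP120 at -0.75 and CEP152 at -0.59 had the largest medians in size. In RKO knockout 3 of 15 were called lower: SASS6, which forms the centriole cartwheel, at -2.70, STIL, its partner, at -1.73 and CEP152, a PLK4 scaffold, at -1.29. The list median there was -0.92. In SW620 knockout PLK4 was the 1 gene of 15 called, and the list median was -0.15.

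Among genes of cyclin E and S phase entry, the paralogue CCNE1 (cyclin E1) was called lower in RKO activation with CCNE2, at -1.76 with guides from -2.79 to -0.05, making 2 of 17. The list medians were -0.16 in RKO activation and -0.18 in SW620 activation. In SW620 activation 1 of 17 was called, CDKN1C, an inhibitor of cyclin-dependent kinases, at -1.45, and CCNE1 was not, at -0.17. In RKO knockout 5 of 19 were called lower, with a list median of -0.29: CCNA2 (cyclin A2) at -1.67, CKS1B, a cyclin-dependent kinase subunit, at -1.49, the G1 kinase CDK4 at -1.14, SKP2, a ubiquitin ligase subunit, at -1.12 and CDK2, the partner of cyclin E2, at -1.06. CDK2 is named after its value was seen. In SW620 knockout CDK6 at -1.39 and CCNA2 at -1.18 were called, 2 of 19, with a list median of -0.21.

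On the list of TP73 relatives, their regulators and target genes, TNFRSF10B, which encodes the death receptor TRAIL-R2, was called lower under activation in both lines. It stood at -3.22 in RKO (1 of 18 genes called, list median 0.06) and at -1.56 in SW620, where it and TP73 made 2 of 18 (list median -0.07). MDM2, a ubiquitin ligase that restrains the family, had activation medians of -0.05 and -0.25 in RKO and SW620. Its knockout median was -2.03 in RKO, with 1 guide at 0.0090 and therefore no call, and 0.13 in SW620. USP7, the deubiquitinase that stabilises MDM2, was the 1 gene of 19 called in RKO knockout, at -4.06, with a list median of 0.08. In SW620 knockout 0 of 19 were called, with a list median of 0.02, and USP7 at -0.76 and the cell death gene BBC3 at 0.43 had the largest medians in size.

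**Figure D4:**
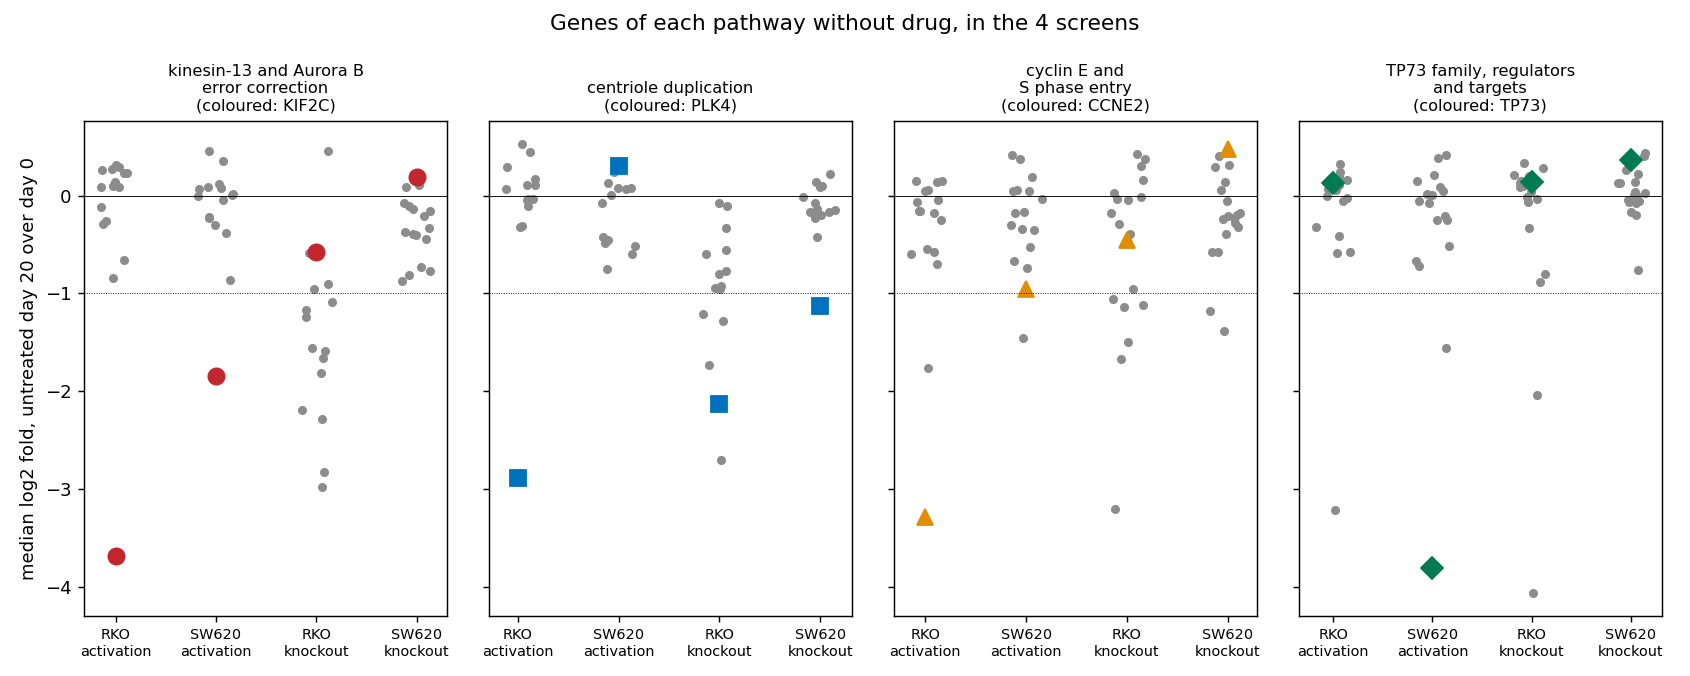
Median log2 fold without drug (untreated day 20 over day 0) of the genes on each pathway list in the 4 screens, with grey dots for list genes, the coloured symbol for the gene named above each panel and a dotted line at -1. Under activation KIF2C in both lines, PLK4 and CCNE2 in RKO and TP73 in SW620 lie apart from most of their list. That follows from their choice on these activation values. Under RKO knockout 8 of 16 spindle attachment genes and 3 of 15 centriole genes were called lower.

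Genes near to each of the 4 were taken by Euclidean distance over the 4 untreated medians, among 18342 genes tested in all screens, as a description. The activation medians in that distance chose the 4 genes. Nearness to other depleted genes, and of KIF2C to CCNE2, therefore follows in part from the choice. KIF18B, a kinesin-8, was nearest to both KIF2C (distance 0.87) and CCNE2 (0.55). Its medians were -2.97 and -1.40 under RKO and SW620 activation and -0.46 and 0.42 under knockout. TNFRSF10B came next for both, at 0.91 and 0.97, and KIF2C and CCNE2 were each the third nearest to the other, at 1.02.

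The genes nearest to PLK4 were farther off than those nearest to KIF2C and CCNE2. RNF8, a ubiquitin ligase of the DNA break response, lay at 1.13, UBTF, a transcription factor of ribosomal RNA genes, at 1.70 and SNRNP70, a spliceosome protein, at 1.83. Of the genes reported here, those near TP73 were EOMES, a T-box transcription factor, at 1.38 and CAPN6, of the calpain family, at 1.42. EOMES had activation medians of -0.34 in RKO and -2.79 in SW620, and CAPN6 of -0.26 in RKO and -2.46 in SW620.

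Oxaliplatin libraries were compared with untreated day 20 and with day 0. In the activation screens each of these comparisons shares 1 library with the contrast that chose the genes. Guides already lost without drug left little to measure: KIF2C and PLK4 in RKO, and TP73 in SW620, had too few counts to be tested against untreated day 20. Scaling mattered here, since the median of all genes in treated RKO activation stood at -0.80 against untreated cells while that of non-targeting guides stood at 2.25.

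In RKO activation at 1.9 µM the guides of KIF2C had 1, 0 and 2 counts, those of PLK4 0, 0 and 0 and those of CCNE2 6, 0 and 7. The 3 PLK4 guides were at least 3.77-fold, 13.4-fold and 8.07-fold lower than at day 0. TP73 guides had 3, 99 and 324 counts, a median of 0.86 over day 0 and of 0.55 over untreated day 20. Both medians lay below the 5th percentile of non-targeting guides, 1.18 over day 0 and 0.88 over untreated day 20. Over day 0 the TP73 guides ranged from -2.72 to 2.88. Against day 0 KIF2C (-3.99), PLK4 (-5.16) and CCNE2 (-3.31) were called lower, where 18.2% of all genes were, and they ranked 1843, 554 and 3093 of 18777. The PLK4 median is that of a guide at 0 and depends on the number added before taking logs. Against untreated day 20, 0 of the 2 tested genes were called lower, with a background of 18.1%. The values of CCNE2 over untreated day 20 and of TP73 in both comparisons turned negative with total-count and with non-targeting scaling. That of CCNE2 was also negative with the mean of guides, at -0.81, where 1 guide stood at -3.71.

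In SW620 activation the TP73 guides were low in both treated libraries, apart from 1 guide at 0.38 µM. They had 5, 99 and 0 counts at 0.38 µM and 0, 5 and 0 at 0.5 µM, against 250, 306 and 142 at day 0. The guide with 99 counts stood at -1.42 over day 0, inside the non-targeting range (5th percentile -1.48). Over untreated day 20, where it had 2 counts, it stood at 2.39. TP73 ranked 10 of 18775 and 27 of 18776 over day 0, with a median of -3.88 at each dose, which is that of a guide at 0 and depends on the number added before logs. The background was 4.77% of genes called lower at 0.38 µM and 6.69% at 0.5 µM. CCNE2 was called lower over day 0 at 0.5 µM (-2.92, rank 107) but stood at 0.27 at 0.38 µM, where its guides lay between -3.73 and 0.41 and their mean was -1.02. KIF2C stood at -1.84 and -0.78 at the 2 doses without a call. At 0.38 µM 1 of its guides lay at 0.54, and at 0.5 µM its median fell short of the fold. PLK4 stood at -1.23 and 0.17.

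Against untreated day 20 none of the 3 SW620 activation genes tested was called lower at either dose, with backgrounds of 4.77% and 6.66%. KIF2C had medians of 0.47 and 1.13 at 0.38 and 0.5 µM, PLK4 of -1.52 and -0.81, and CCNE2 of 1.09 and -0.82. All 6 values lay within the range of single non-targeting guides, -1.58 to 1.48 at 0.38 µM and -1.78 to 1.72 at 0.5 µM. Single guides spread more widely than gene medians. Among gene medians PLK4 at 0.38 µM lay below the 5th percentile of -1.38 and ranked 718 of 18767, with guides from -3.42 to 1.31.

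In RKO knockout under 1.9 µM oxaliplatin, 0 of the 4 genes were called lower against untreated day 20, with a background of 3.19%. The medians were -0.76 for KIF2C, -0.90 for PLK4 (3 guides tested, at 2.02, -0.90 and -2.01), -1.05 for CCNE2 and 1.62 for TP73. The remaining PLK4 guide, with 15 counts in treated and 4 in untreated cells, had too few to be tested, and with no count filter the PLK4 median turned to 0.56. Non-targeting guides lay between -1.18 and 1.96 there. TP73 guides ranged from -1.06 to 3.26, so 1 of the 4 went against the others. PLK4 was called lower against day 0, at -1.71, where 10.4% of genes were.

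In SW620 knockout at 0.38 µM the 4 medians against untreated day 20 were -0.26 for KIF2C, -0.33 for PLK4, -0.46 for CCNE2 and 0.21 for TP73. None was called lower, with a background of 2.74%. At 0.5 µM PLK4 was called lower, at -1.99 with guides from -4.25 to -0.94, where 7.35% of genes were. Its guides had 9, 40, 23 and 8 counts at 0.5 µM, 556, 247, 128 and 132 at 0.38 µM, and 661, 252, 196 and 194 in untreated cells. That median still lay within the non-targeting range of -2.68 to 3.63, and ranked 2602 of 19091.

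KIF2C, CCNE2 and TP73 stood at 0.12, 0.24 and 0.47 in SW620 knockout at 0.5 µM over untreated day 20, and all 3 turned negative with total-count and with non-targeting scaling. Single guides were far apart there: KIF2C guides ranged from -2.59 to 3.80 and TP73 guides from -0.85 to 3.92. Against day 0 PLK4 was called lower at both doses, at -1.37 and -3.12, where 4.26% and 7.72% of genes were, and the other 3 genes were not.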

How the data were processed

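Guide cassettes were amplified by PCR from genomic DNA and sequenced, per the labels' protocols. The authors deposited 4 tables of raw counts per guide and 4 tables of the same counts on a normalized scale, a signal that equals the counts times 1 constant per library (checked on the values). MAGeCK 0.5.7 and cutadapt 4.0 are named, per the submitters' processing notes, with no settings given in the sources used here. All columns were matched to samples by name.

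Size factors, guide folds and gene medians were computed with Python 3.11.15, numpy 2.4.6, pandas 2.3.3 and scipy 1.17.1 from the raw counts, and checked on simulated counts. A guide was tested if its scaled counts averaged at least 20 over both libraries of a comparison, and genes needed 3 guides in knockout and 2 in activation. With 1 library per condition no count model between conditions can be fitted. The genes, the pathway lists and the rules for naming genes were chosen with earlier results of these data known. Named are the 4 genes and up to 4 called genes per list and screen (else the 2 largest in size). CDK2, MDM2 and up to 3 of the nearest genes of each of the 4 are named too. Reads were amplified by PCR and no molecular identifiers are named, so intervals and floors cover counting error alone. Sequences and loci came from RefSeq tables of GRCh38.p14. Results for some genes are not reported here. Alternatives were scaling by total counts or non-targeting guides, 1 in place of 5 added before logs, no count filter, the mean of guides and, added after seeing the data, the authors' constants.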

Additional observations from a re-analysis of the deposited data

Results flagged for a closer look

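TP73 and PLK4 were each called lower under activation without drug in 1 line, with a value just above 0 and inside the non-targeting range in the other. RKO minus SW620 was 3.94 for TP73 (0.13 in RKO and -3.81 in SW620) and -3.19 for PLK4 (-2.89 in RKO and 0.30 in SW620). Each line has 1 library per time, so the difference was not tested, and these values chose the genes.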

How the results depend on the processing

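Without drug the activation calls of KIF2C in both lines, of CCNE2 and PLK4 in RKO and of TP73 in SW620 held under all 7 settings, with ranges of -4.10 to -3.49 and -1.95 to -1.65 for KIF2C, -3.50 to -3.04 for CCNE2, -3.26 to -2.82 for PLK4 and -4.43 to -3.53 for TP73. Genes called higher in RKO activation went to 2 with 1 added before logs and 2 with the authors' constants (0 as reported). Of the 4 genes, those called lower in knockout without drug went to 1 in RKO with non-targeting scaling and to 0 in SW620 with the mean of guides, and genes called lower in SW620 went to 518 with non-targeting scaling (206 as reported).

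Non-targeting scaling put the median of all genes at -0.41 in RKO knockout (0.09 as reported) and at -0.23 in SW620 knockout (0.04), so every untreated knockout value moves down with it.

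Under oxaliplatin the counts moved with the scaling, and so did the median of all genes, to -4.25 in RKO activation over day 0 with total counts (-0.84 as reported). The share of calls that were lower over untreated day 20 became 99.8%, 97.8% and 51.3% in RKO activation with total counts, non-targeting scaling and the authors' constants (71.1% as reported). With total counts it became 98.8% in RKO knockout (38.9% as reported), 88.7% and 92.9% in SW620 activation at 0.38 and 0.5 µM (54.2% and 55.5%) and 96.0% and 99.5% in SW620 knockout (55.8% and 54.0%). With non-targeting scaling it became 66.7% in RKO knockout and 90.7% and 91.2% in SW620 knockout. Of the 4 genes, those called lower over untreated day 20 became 3, 1 and 1 in RKO activation (total counts, non-targeting scaling, no filter), 1 and 1 in SW620 activation at 0.5 µM (total counts, mean of guides), and 2 and 1 in RKO knockout (total counts, non-targeting scaling). Over day 0 they became 3 and 3 in RKO knockout under those scalings. In treated RKO activation CCNE2 over untreated day 20 (0.39 as reported) turned to -2.64, -1.53 and -0.81 (total counts, non-targeting scaling, mean of guides). With total counts and non-targeting scaling TP73 (0.55 and 0.86) turned to -3.001 and -1.63 over untreated day 20 and to -2.73 and -1.41 over day 0. Of the 60 values of the 4 genes, called or not, the sign turned in 13 with total counts, 13 with non-targeting scaling, 4 with the mean of guides, 1 with no filter and 0 with the other settings, and only 2 of these were without drug (KIF2C in SW620 knockout and TP73 in RKO knockout).

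With total counts, genes called lower over untreated day 20 were 12422 in RKO activation (3395 as reported), 2050 and 3156 in SW620 activation at 0.38 and 0.5 µM (895 and 1250), 7645 in RKO knockout (589), and 1683 and 7096 in SW620 knockout (524 and 1404). Over day 0 they were 12478 (3411), 2149 and 3334 (895 and 1257), 9038 (1984), and 2099 and 7200 (813 and 1474), in the same order. With non-targeting scaling they were 8401 in RKO activation, 1136 in RKO knockout, and 1218 and 3075 in SW620 knockout over untreated day 20, and 8668, 4561, 2699 and 3864 over day 0.

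No paired analysis was possible because each condition is 1 library and the labels number no replicates. The untreated SW620 activation library, with a median of 62 counts per guide, limits how low a value its guides can show.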
